A study of Oryza sativa Japonica Group with 8 samples.

Results

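The genes described here encode the light sensors of rice, the phytochromes PHYA, PHYB and PHYC and the cryptochromes CRY1a, CRY1b and CRY2, together with 1 HY5-like transcription factor gene, Os02g0203000. The 7 genes were chosen by locus identifier under a rule that used no values, but with earlier results of these data known. They were read by every probe whose name began with one of these identifiers. They made up 7 of 29690 loci and 20 of 42477 probes on the array. All 20 probes were well above background on all 8 arrays, so no member was lost to a filter on dim signals.

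Phytochromes are red and far-red light receptors that carry a linear tetrapyrrole chromophore and switch between an inactive and an active form. Cryptochromes are blue light receptors that bind a flavin and are related to photolyases, the enzymes that repair DNA in light. In Arabidopsis both classes of receptor restrain the COP1 and SPA ubiquitin ligase complex in light, which lets the bZIP factor HY5 accumulate and act on light-regulated genes, and phytochromes also act against the PIF class of bHLH factors. In rice, phytochromes are known for their part in de-etiolation, leaf development and the control of flowering by day length.

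The samples were fifth-leaf blades of the rice cultivar Hinohikari (Oryza sativa Japonica Group) at the five-leaf stage, from plants grown at 25 ºC. In the linalool group, plants were exposed to 10 µM linalool, a volatile monoterpene alcohol, and sampled after 24 h. The control group is called mock-treated in 1 label and untreated in another, and was also sampled after 24 h; it is called mock here. Each group had 4 biological replicates per the design text, each a pool of at least 3 plants and each measured on 1 single-colour array.

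A level below is the log2 signal of a probe minus the 75th percentile of its array, so a level of 0 equals the signal that 75% of spots did not exceed. A level is set only against other levels of the same probe. In mock samples the 75th percentile of the signal ran from 849.6 to 999.6, and in linalool samples from 1092 to 1605. The share of spots well above background was 73.3% to 77.3%, and arrays correlated at 0.975 or more within a group. The mock samples shared 1 slide and scan and the linalool samples another. An effect of the slide or scan and one of the treatment therefore cannot be told apart in any comparison below. Median background was 26 to 28 on the mock arrays and 19 on each linalool array. All 5 green leaf markers (Rubisco small subunit, Lhcb and Rubisco activase genes) were well above background on every array, whereas the root and endosperm markers with a probe were above background on at most 1 array.

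The comparison asks whether the photoreceptor genes and the HY5-like gene differed in level after linalool. On the 75th percentile scale, all 3 phytochrome genes, 2 of 3 cryptochrome genes and the HY5-like gene were lower after linalool, by 0.54 to 0.89 on the log2 scale, and CRY2 was not called. That is 6 of 7 members lower and 0 higher, with a median difference of -0.67. Over all 21544 genes tested, 38.5% were called lower, 28.9% were called higher, 67.4% were called in either direction, and the median difference was -0.10. The test was limma with Benjamini-Hochberg adjustment over all 33120 tested probes, and a gene was called at an adjusted p below 0.05. None of the 7 differences reached 2-fold, which 29.4% of all tested genes did. Differences at least as far from 0 were common among all genes: 34.1% of genes differed by more than CRY1b, the member with the largest difference, and 94.3% by more than CRY2. The 6 calls depended on the scaling. Scaled to the 6 measured spike-in probes instead, 0 members were lower and 1, CRY2, was higher, against 15.2% lower, 54% higher and 69.2% in either direction among all genes. That scaling shifted the median difference over all genes upwards by 0.64. In bulk leaf RNA, fewer cells of a type and less RNA per cell cannot be told apart.

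Green leaf markers were also lower on the 75th percentile scale, by more than any member. All 5 of 5 were called lower, where 38.5% of all genes were, with differences of -3.95 to -1.25 on the log2 scale. Their summed signal in units of the 75th percentile ran from 2420 to 2810 in mock samples, against 427 to 779 after linalool. Of 3 dividing-cell markers, 2 were tested and both were called higher, by 0.23 and 1.06, where 28.9% of all genes were. Of the 3, 1 was well above background on every array and 1 on no array. The summed signal of all 3 dividing-cell markers, the untested 1 included, was 0.732 to 0.859 in mock and 0.917 to 0.971 after linalool. None of the 3 secondary wall markers was well above background on any array. The part of these marker shifts in the differences of the photoreceptor genes was not tested.

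**Figure D1:**
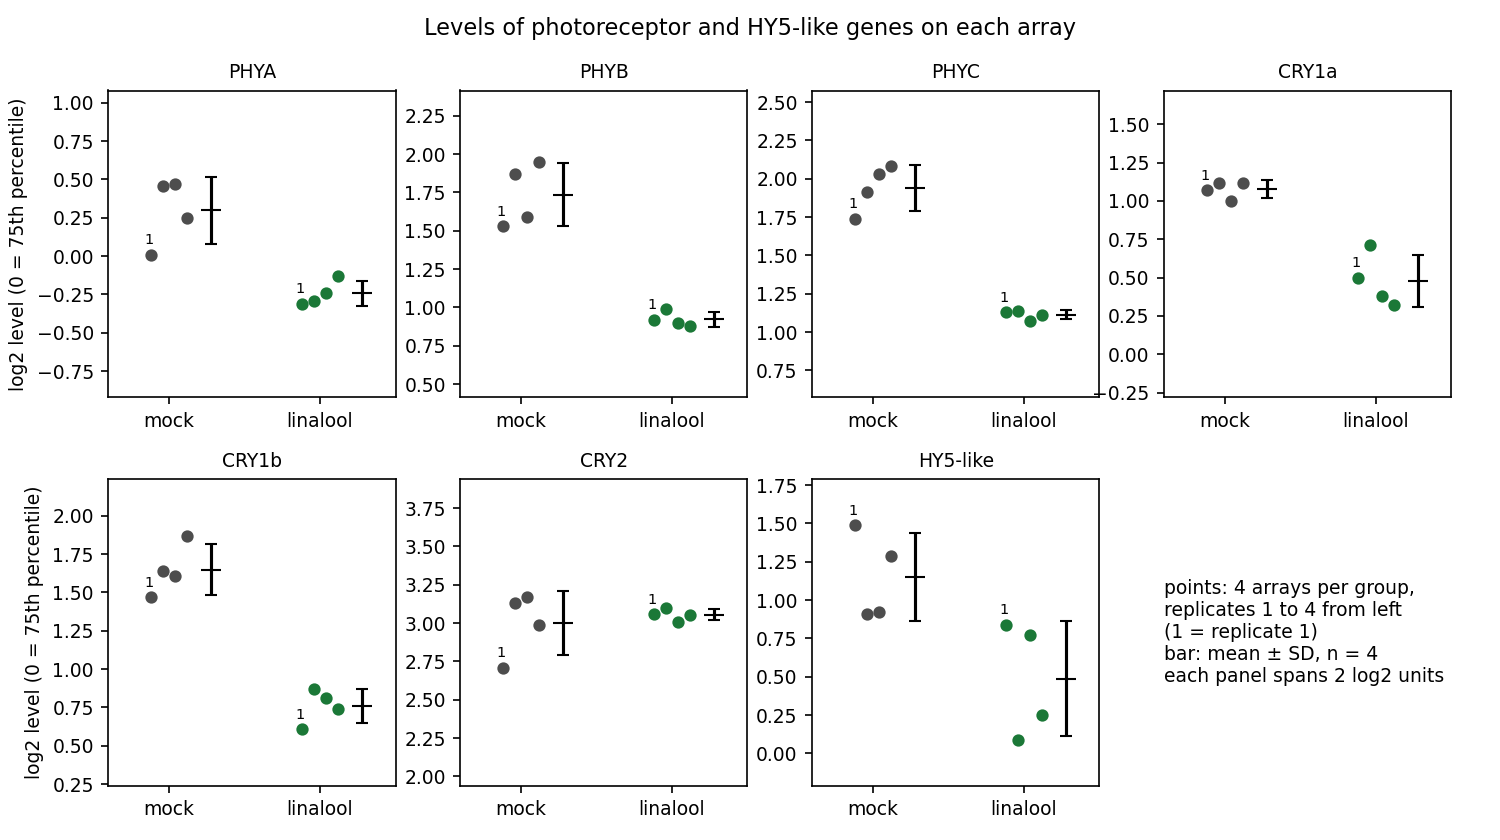
Level of each gene on each array by its brightest probe (y axis, log2 signal relative to the 75th percentile of the array) in the mock and linalool groups (x axis). Points are arrays in replicate order from the left and bars are the mean ± SD of 4. The groups are apart for 6 genes and overlap for CRY2.

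PHYA (Os03g0719800) encodes the phytochrome that is degraded in light and senses far-red and very weak light. Its level was 0.01, 0.46, 0.47 and 0.25 on mock replicates 1 to 4 and -0.31, -0.29, -0.24 and -0.13 on linalool replicates 1 to 4. Every linalool array lay below every mock array, with mock replicate 1 nearest to the linalool group at a gap of 0.14. The mean fell by 0.54 ± 0.12 (SE) on the log2 scale, which is 1.45-fold lower, with a limma adjusted p of 0.00373. The second PHYA probe differed by -0.50.

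PHYB (Os03g0309200) encodes a light-stable phytochrome that is a main sensor of red light. Its level was 1.53, 1.87, 1.59 and 1.95 on the mock arrays and 0.92, 0.99, 0.90 and 0.88 on the linalool arrays, in replicate order. The linalool arrays lay within 0.11 of each other and the mock arrays spread over 0.42. The mean fell by 0.81 ± 0.11 (SE), 1.76-fold, with a limma adjusted p of 0.000283. The array names 2 transcripts for this locus, and the probe for transcript Os03t0309200-01 (-0.81) and both probes for transcript Os03t0309200-02 (-0.77 and -0.76) differed from each other by less than their SE.

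PHYC (Os03g0752100) encodes the third rice phytochrome, also light-stable. Its level was 1.74, 1.91, 2.03 and 2.08 on the mock arrays and 1.13, 1.14, 1.07 and 1.11 on the linalool arrays, in replicate order. The gap of 0.60 between the groups was wider than the range of either. The mean fell by 0.83 ± 0.09 (SE), 1.77-fold, with a limma adjusted p of 8.78e-05, and the second probe differed by -0.81.

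The 3 phytochrome genes lie on chromosome 3 by their locus numbers, and all 7 of their probes were called lower. Probes of the same gene are repeated readings of it, so these 7 probes stand for 3 genes. Among all 33120 tested probes, 38.9% were called lower and 67.3% in either direction.

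CRY1a (Os02g0573200) and CRY1b (Os04g0452100) encode the pair of rice type 1 cryptochromes, which in rice seedlings act in blue light inhibition of growth. CRY1a had levels of 1.07, 1.12, 1.00 and 1.12 on the mock arrays and 0.50, 0.71, 0.38 and 0.32 on the linalool arrays. Unlike PHYB and PHYC, CRY1a varied more among linalool arrays (SD 0.17) than among mock arrays (SD 0.0566), and linalool replicate 2 was the highest of its group. The mean fell by 0.60 ± 0.10 (SE), 1.52-fold, with a limma adjusted p of 0.000808. CRY1b had levels of 1.47, 1.64, 1.61 and 1.87 on the mock arrays and 0.61, 0.87, 0.81 and 0.74 on the linalool arrays. The groups were 0.60 apart, and the mean fell by 0.89 ± 0.11 (SE), 1.86-fold, with a limma adjusted p of 0.000131. All 3 probes of each gene were called lower. The CRY1a probes fell by 0.60 to 0.63. The CRY1b probes fell by 0.89 to 1.23, the last on a probe with a signal well below the 75th percentile (mean -3.80 in mock and -5.02 after linalool), whose 95% interval of -1.72 to -0.74 contains the other differences.

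CRY2 (Os02g0625000) encodes the other rice cryptochrome, which is degraded in blue light and takes part in the promotion of flowering. Its level was 2.71, 3.13, 3.17 and 2.99 on the mock arrays and 3.06, 3.10, 3.01 and 3.05 on the linalool arrays. The linalool arrays all fell inside the range of the mock arrays. The difference was 0.06 ± 0.11 (SE) with a 95% interval of -0.20 to 0.31 and a limma adjusted p of 0.674, so a change smaller than these bounds was not detectable. CRY2 was read by 6 probes, none of which was called, and their differences ran from -0.04 to 0.14. One of them is the only probe for a second transcript, Os02t0625000-02, and differed by 0.14 with a 95% interval of -0.23 to 0.50.

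**Figure D2:**
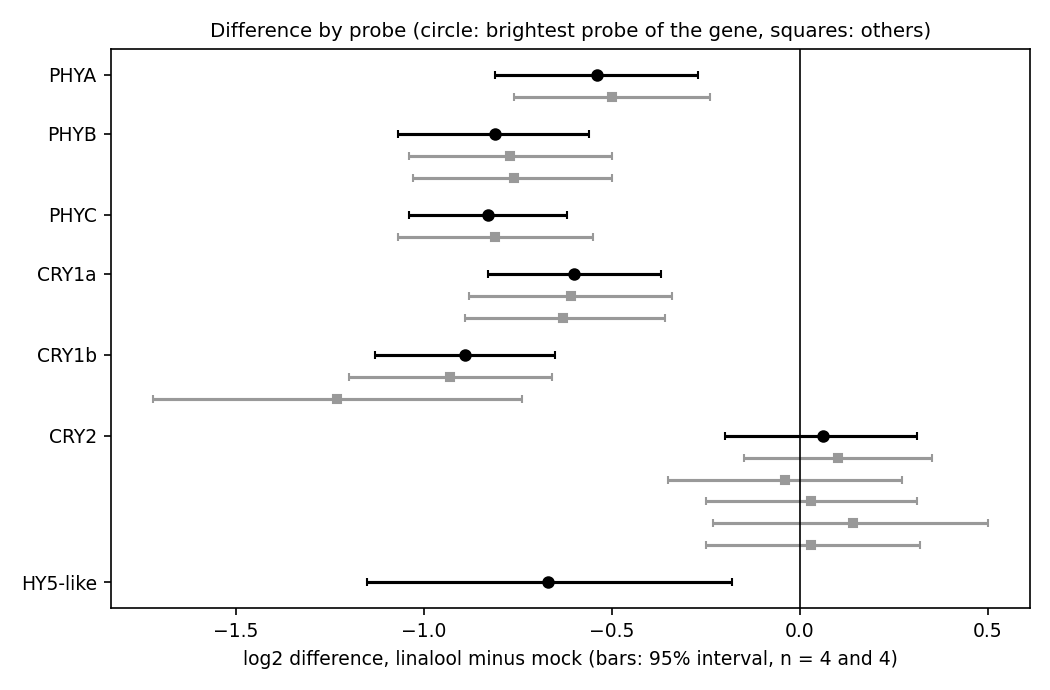
Log2 difference between linalool and mock (x axis) for each of the 20 probes, grouped by gene (y axis), with 95% intervals from limma. Circles are the brightest probe of a gene and squares the others. The 14 probes of the 6 genes other than CRY2 lie below 0, and all 6 CRY2 intervals include 0.

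The HY5-like gene Os02g0203000 encodes a bZIP factor of the HY5 type, the class that acts on light-regulated genes downstream of the photoreceptors. It had a single probe, with levels of 1.49, 0.91, 0.92 and 1.29 on the mock arrays and 0.84, 0.09, 0.77 and 0.25 on the linalool arrays. The array gives this probe a second name without a locus identifier, so its locus could not be checked by that name. The groups were 0.07 apart, less than the spread within either, and linalool replicates 1 and 3 lay close to mock replicates 2 and 3. The mean fell by 0.67 ± 0.21 (SE), 1.59-fold, with a limma adjusted p of 0.0216. The call was lost when any of 4 arrays was left out, with adjusted p of 0.0528 without mock replicate 1, 0.0558 without mock replicate 4, 0.0531 without linalool replicate 2 and 0.0582 without linalool replicate 4.

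The groups did not overlap for 6 of 7 members, always with linalool below mock. This held for 36.1% of all genes in that direction and for 63.4% in either. Among the mock arrays, replicate 1 had the lowest level for 5 of 7 members (PHYA, PHYB, PHYC, CRY1b and CRY2) and the highest for the HY5-like gene. Without mock replicate 1, PHYA fell by 0.64 and CRY2 had a difference of -0.04 (limma adjusted p = 0.642).

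Under spike-in scaling, the differences were 0.10 for PHYA, -0.17 for PHYB, -0.18 for PHYC, 0.04 for CRY1a, -0.25 for CRY1b and -0.02 for the HY5-like gene, none of them called, so that PHYA and CRY1a changed sign and the other 4 stayed below 0. CRY2 rose by 0.70 on that scale (limma adjusted p = 0.00403). Before any scaling, 5 spike-in probes differed by -0.11 to 0.03 between the groups, and the dimmest, with a mean log2 signal of 5.16 in mock and 4.50 after linalool, differed by -0.66. The RNA input was 100 ng, so neither scale measures an amount of RNA per cell, and which is nearer to it was not tested.

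**Figure D3:**
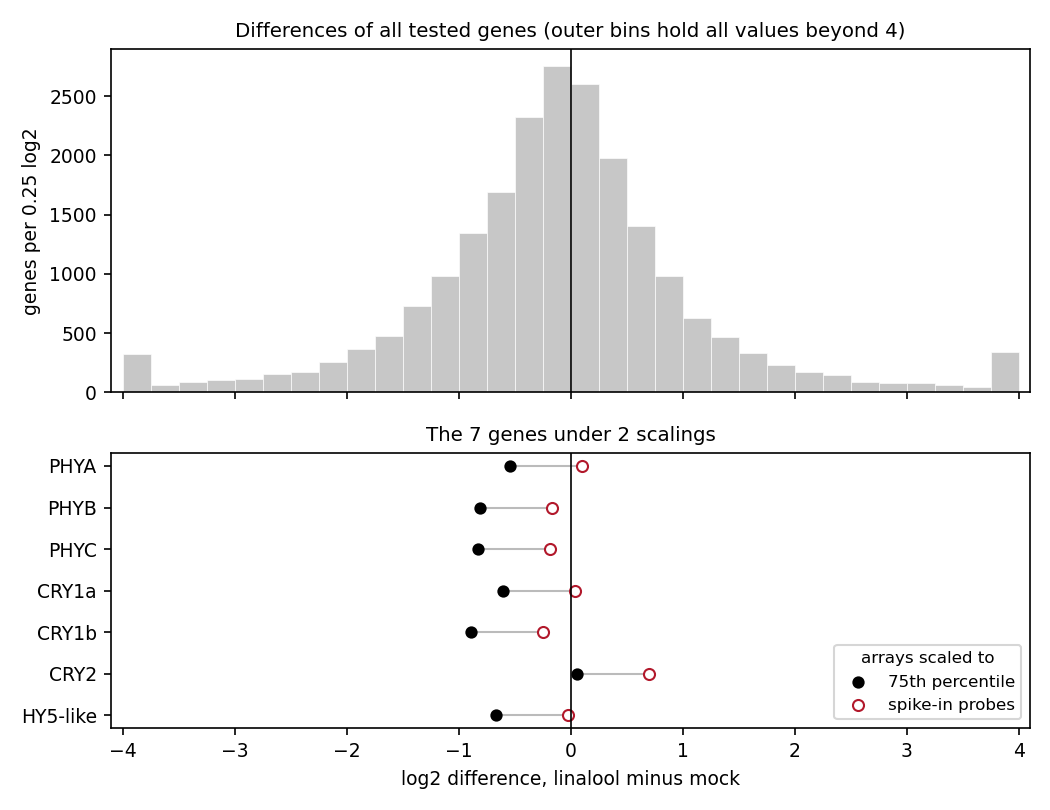
Upper panel: number of tested genes (y axis) by log2 difference between linalool and mock (x axis) on the 75th percentile scale. Lower panel: the 7 genes on the same x axis, as filled points for the 75th percentile and open points for the spike-in probes, where every gene lies 0.64 further to the right and CRY2 stays above the other 6.

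A ratio of 2 probes on the same array does not depend on how arrays are scaled, so pairs within each receptor class were compared by their log2 ratio. The ratio of CRY1b to CRY2 was -1.23, -1.50, -1.56 and -1.12 on the mock arrays and -2.46, -2.23, -2.20 and -2.31 on the linalool arrays. Its mean went from -1.35 ± 0.21 to -2.30 ± 0.12 (SD, n = 4 each), a difference of -0.95, or 1.93-fold less CRY1b per CRY2 signal, with an exact two-sided permutation p of 0.0286. The ratio of CRY1a to CRY2 went from -1.92 ± 0.23 to -2.58 ± 0.14 (SD, n = 4 each), a difference of -0.66 (exact permutation p = 0.0286). In both cases no linalool array overlapped a mock array.

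Among the phytochromes, the ratio of PHYA to PHYC went from -1.64 ± 0.17 to -1.35 ± 0.098 (SD, n = 4 each), a difference of 0.29 with groups that did not overlap (exact permutation p = 0.0286). The ratio of PHYA to PHYB had a difference of 0.27 with overlapping groups (exact permutation p = 0.114), and that of CRY1a to CRY1b one of 0.29 (exact permutation p = 0.0857). The ratio of PHYB to PHYC was -0.20 ± 0.17 in mock and -0.19 ± 0.038 after linalool (SD, n = 4 each), a difference of 0.01 (exact permutation p = 0.943). The smallest p that 4 against 4 arrays allow is 0.0286, and after Benjamini-Hochberg adjustment over the 6 pairs the 3 smallest became 0.0571, so none passed 0.05. Unlike scaling, background correction can change a ratio. With normexp correction the adjusted permutation p of these 3 rose to 0.114 for PHYA over PHYC (difference 0.36). It rose to 0.0857 for CRY1a over CRY2 (-0.61) and for CRY1b over CRY2 (-0.83).

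**Figure D4:**
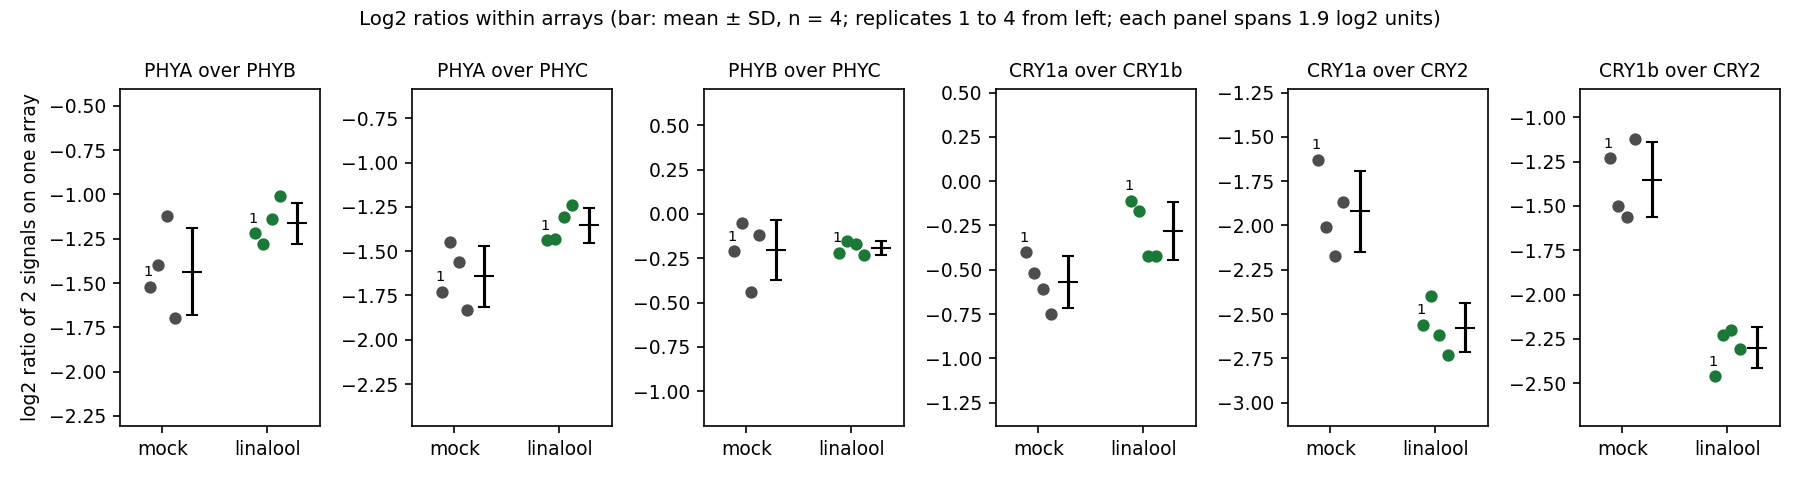
Log2 ratio of the signals of 2 genes on each array (y axis) for the 6 pairs, in mock and linalool (x axis). Points are arrays in replicate order from the left and bars are the mean ± SD of 4. Groups are apart for PHYA over PHYC, CRY1a over CRY2 and CRY1b over CRY2.

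Set against the other members, the ratio of CRY2 to PHYA was 1.51-fold higher after linalool, to PHYB 1.83-fold, to PHYC 1.84-fold and to the HY5-like gene 1.65-fold. The groups were apart for each of these except the ratio to the HY5-like gene. These 4 ratios are given as a description.

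As profiles over the 8 arrays, each centred on its own mean, the members most alike were PHYB and CRY1b at a Euclidean distance of 0.27, PHYC and CRY1b at 0.28, and PHYB and PHYC at 0.30. CRY2 was 0.86 or more from every other member. Searched against 21515 other genes, the nearest profile to PHYA was that of Os01g0373400 (distance 0.182), to PHYB Os01g0912600 (0.179), to PHYC Os02g0557700 (0.146), to CRY1a Os01g0600400 (0.119), to CRY1b Os01g0952300 (0.132), to CRY2 Os07g0596600 (0.102) and to the HY5-like gene Os07g0193200 (0.325). These loci are given by identifier only, and their own differences between the groups were -0.95 to 0.02.

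The other genes of light signalling came from a list of 27 loci recalled from published rice names, with earlier results of these data known. Of 25 that could be tested, 16 were lower, 2 were higher and 7 did not pass, with a median difference of -0.56. The shares over all tested genes were 38.5% lower, 28.9% higher and 67.4% in either direction. Groups were apart for 18 of the 25, and for 63.4% of all genes. Under spike-in scaling 8 were lower and 6 higher, against 15.2% and 54% of all genes, with 69.2% called in either direction. With normexp background correction 9 were lower and 0 higher, against 12.8% lower, 14.3% higher and 27% in either direction among all genes. The reference table bore out the names of 9 of the 27 loci by symbol and chromosome, and the other loci are given by identifier without a name or role.

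Of the named loci, SE5 (Os06g0603000) encodes the haem oxygenase that makes the precursor of the phytochrome chromophore. It had levels of 4.33, 4.30, 4.51 and 4.50 on the mock arrays and 3.80, 3.90, 3.85 and 3.84 on the linalool arrays, and fell by 0.56 ± 0.08 (SE, limma adjusted p = 0.000371). Like PHYA it had no call under spike-in scaling, with a difference of 0.08 (limma adjusted p = 0.694). The phototropins are blue light receptors with flavin-binding LOV domains that direct chloroplast movement and bending towards light. PHOT2 (Os04g0304200) had levels of 2.53, 2.65, 2.33 and 2.68 on the mock arrays and 1.00, 1.10, 0.62 and 0.49 on the linalool arrays, and was 3.35-fold lower (limma adjusted p = 2.89e-05). PHOT1A (Os12g0101800) was 2.39-fold lower (limma adjusted p = 7.63e-05). The only probe of its near-identical copy PHOT1B (Os11g0102200) is assigned to the PHOT1A transcript in the second name column, so the copies cannot be told apart and PHOT1B was left out of the gene counts. Both phototropin genes were also called lower under spike-in scaling, PHOT2 with a difference of -1.10 (limma adjusted p = 0.000451) and PHOT1A with one of -0.61 (limma adjusted p = 0.0112), and with normexp correction, with differences of -1.70 and -1.27.

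Among relatives of the cryptochromes, CRYD (Os06g0661800), a cryptochrome of the DASH type, had levels of -1.66, -1.84, -1.97 and -1.30 on the mock arrays and -3.15, -3.87, -3.51 and -4.11 on the linalool arrays. It was 3.91-fold lower (limma adjusted p = 0.000113), and had a difference of -1.33 under spike-in scaling (limma adjusted p = 0.000312), but was not called with normexp correction (limma adjusted p = 0.15). The photolyase genes did not pass: UVR3 (Os02g0204400) had a difference of -0.37 with a 95% interval of -1.08 to 0.35, and phr (Os10g0167600) one of 0.16 with an interval of -0.03 to 0.36, although phr was called higher, by 0.81, under spike-in scaling. OsUV-DDB1 (Os05g0592400), a DNA damage binding protein that also serves as an adaptor of CUL4 ubiquitin ligases, is described because it was 1 of the 2 loci called higher, a choice made after its values were seen. It rose by 0.46 (limma adjusted p = 0.00476) by the brightest of its 4 probes, whose differences ran from 0.17 to 0.46. With normexp correction its difference was 0.35 and was not called (limma adjusted p = 0.206). Under spike-in scaling it was called higher, by 1.10 (limma adjusted p = 0.00053), as were 54% of all genes. The bHLH gene APG (Os05g0139100) was not well above background on any mock array and was so on 1 linalool array, and it was not tested.

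Of the 18 unnamed loci, 12 were lower, 1 was higher and 5 did not pass, where 38.5% of all genes were lower, 28.9% higher and 67.4% either. Os02g0554100 had levels of -2.85, -2.64, -3.48 and -3.07 on the mock arrays and -7.27, -6.16, -8.51 and -7.19 on the linalool arrays, a difference of -4.27 (limma adjusted p = 6.14e-05). Only 2 of its linalool arrays were well above background, and with normexp correction the difference was -1.27 and was not called (limma adjusted p = 0.289). Os06g0601500 was well above background on all mock arrays and no linalool array, so the size of its fall is uncertain. Its measured means were -5.14 and -8.53 (limma adjusted p = 0.000186), and with a floor under the linalool signals it was 8.05-fold lower. The 8.05-fold value sets the mock mean against a value taken per linalool array. That value is the locus's own signal or, where that is dimmer, the dimmest signal of any probe well above background. It still rests on signals not well above background and is not a lower limit. With normexp correction the difference of Os06g0601500 was -0.31 and was not called (limma adjusted p = 0.91). Os03g0782500 fell by 2.24, from 2.02 ± 0.081 to -0.22 ± 0.072 (SD, n = 4 each, limma adjusted p = 3.59e-07), and was also called lower under spike-in scaling (-1.60) and with normexp correction (-2.17). Os01g0725800 had levels of 3.36, 3.16, 3.04 and 3.23 on the mock arrays and 1.88, 1.88, 1.85 and 1.72 on the linalool arrays, and was 2.58-fold lower (limma adjusted p = 6.94e-06). It was also called lower under spike-in scaling (-0.73) and with normexp correction (-1.35). Os12g0610200 was 2.09-fold lower (limma adjusted p = 3.05e-05) and was called lower under both as well (-0.42 and -0.82). Os02g0771100 (-0.81), Os03g0639300 (-0.73), Os01g0104600 (-0.68) and Os05g0571000 (-0.57) were called lower on the 75th percentile scale and not under spike-in scaling, where their differences were -0.17 to 0.07. Os06g0694000 (-0.43) and Os07g0143200 (-0.37) were likewise lower and, under spike-in scaling, not called, with differences of 0.21 and 0.27. Os11g0547000 rose by 0.74 (limma adjusted p = 0.009), and with normexp correction its difference was 0.64 (limma adjusted p = 0.0529). Under spike-in scaling it was called higher, by 1.38 (limma adjusted p = 0.000181), as were 54% of all genes.

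**Figure D5:**
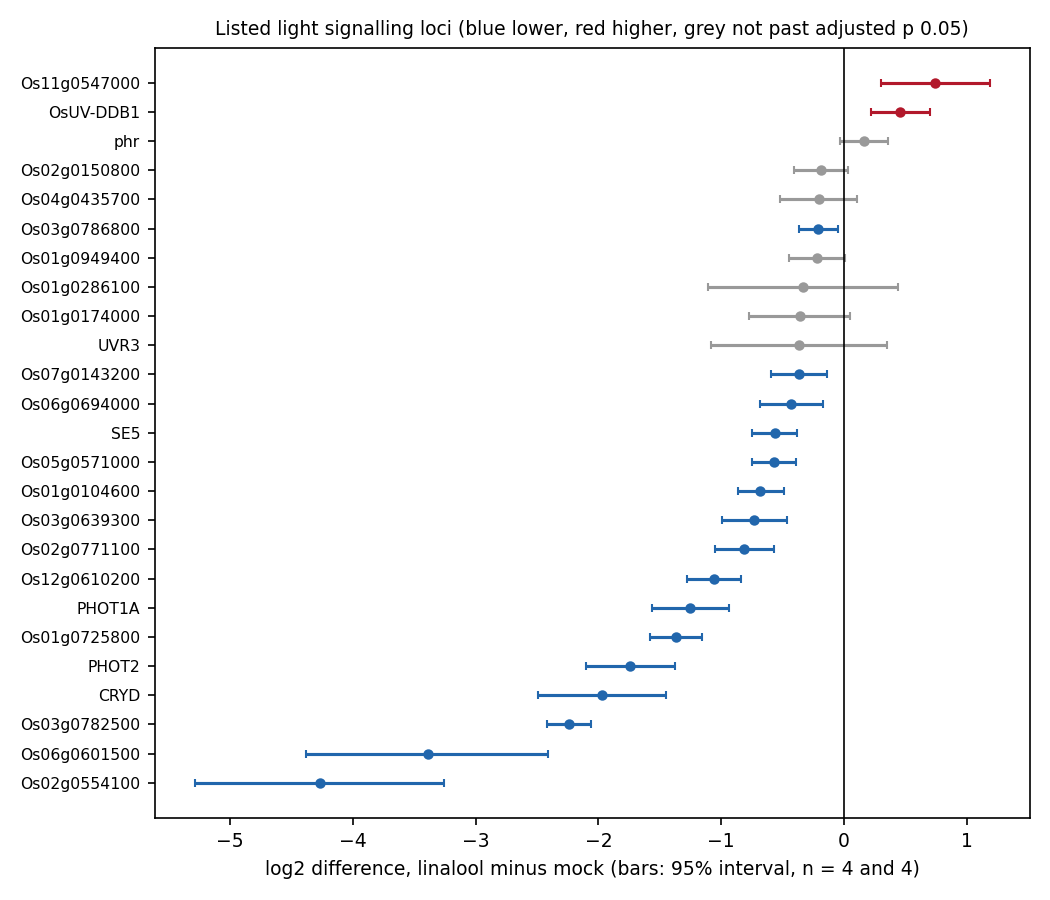
Log2 difference between linalool and mock (x axis) with 95% intervals for the 25 tested loci of the light signalling list (y axis). Blue points were called lower (16), red higher (2) and grey points did not pass (7).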

How the data were processed

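Expression was measured on 8 single-colour Agilent arrays. Per the file headers, the deposited intensity values are the processed signal of Agilent Feature Extraction 10.7.3.1, background-corrected, linear and unscaled. The deposited series matrix holds these intensity values times a constant for each array (1.37 to 2.51), by a rule not given in the sources used here, with column medians of 298.8 to 339.8.

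The signal was taken to log2, the 75th percentile over non-control spots was subtracted, non-uniform spots (4 to 17 per array) were left out and spots of a probe were averaged. No spot was saturated. Probes well above background on at least 4 of 8 arrays entered lmFit and eBayes of limma 3.58.1 (R 4.3.3). The fit was also run on simulated data that were already scaled, which does not test the scaling or the slide. A gene was represented by its brightest tested probe. Gene counts leave out 1358 probes with conflicting locus names. Replicates are separate pools, and the number of arrays limits the precision.

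Members and lists were chosen with earlier results of these data known. All members were named, as was the nearest of 2 profiles recorded for each. Values of list loci are given for loci among the 4 with the smallest p of their role, and for OsUV-DDB1 besides; not every such locus is described. The HY5-like and cryptochrome names come from the selection rule; the reference, ASM3414082v1, bore out the 3 phytochrome names. The files' annotation build differs, so no coordinates are given. Alternatives covered scaling, background correction, filter, probe choice, variance model, replicate block and left-out arrays.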

Additional observations from a re-analysis of the deposited data

Results flagged for a closer look

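Of 76 groups of 4 arrays examined for an array far from the others, over the 7 members, the 25 tested list loci and the 6 log ratios, 3 stood out, and chance flags about 5% of groups. None concerned a member or a ratio. Linalool replicate 3 had a level of 1.56 for Os02g0771100, against 1.34 to 1.35 on the other linalool arrays. Linalool replicate 4 had a level of 2.04 for PHOT1A (Os12g0101800), against 1.91 to 1.93. Mock replicate 1 had a level of -2.50 for Os11g0547000, against -1.71 to -1.66 on the other mock arrays.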

How the results depend on the processing

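Spike-in scaling left 1 member called, with differences of 0.10 for PHYA, -0.17 for PHYB, -0.18 for PHYC, 0.04 for CRY1a, -0.25 for CRY1b, 0.70 for CRY2 and -0.02 for the HY5-like gene. Normexp correction left 6 members called, with CRY2 at -0.00048, but 5824 genes overall in place of 14524 and 9 list loci in place of 18; signal, correction and offset change together, and the cause was not tested. Without 1 array at a time, 5 to 6 members, 17 to 19 list loci and 13368 to 14593 genes were called. The difference ran from -0.64 to -0.48 for PHYA, -0.88 to -0.74 for PHYB, -0.89 to -0.78 for PHYC, -0.68 to -0.55 for CRY1a, -0.95 to -0.82 for CRY1b, -0.04 to 0.11 for CRY2 and -0.79 to -0.53 for the HY5-like gene. The log ratio difference ran from 0.18 to 0.38 for PHYA over PHYB, 0.23 to 0.35 for PHYA over PHYC, -0.07 to 0.07 for PHYB over PHYC, 0.23 to 0.35 for CRY1a over CRY1b, -0.74 to -0.56 for CRY1a over CRY2 and -1.02 to -0.87 for CRY1b over CRY2. Without mock replicate 1 or 3, 4 ratios each reached an adjusted p of 0.0429 in place of 0.0571 or more. The smallest exact permutation p is 0.0286 for 3 against 4 arrays as well. The adjusted p fell as more ratios tied at that value, which does not lower the unadjusted p of ratios already there.

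The other settings for the members, list and all genes (quantile normalisation, median scaling, series matrix values, no filter, a stricter filter, mean over probes, trend and robust eBayes) kept every member's direction and side of the threshold. Quantile normalisation moved the median of all genes by 0.12 and the share of higher genes among calls from 42.9% to 51.1%. Spike-in scaling raised that share to 78.1% and normexp to 52.8%, while no filter lowered it to 33.9%. Deviations from the group means correlated at 0, 0.17, 0.11 and -0.11 between arrays of the same number, for replicates 1 to 4. No strong effect shared by arrays of 1 number was seen, which does not settle whether they were paired. With the replicate number as a block, 6 members were called, with the same differences (HY5-like gene -0.67, adjusted p = 0.0165), as were 17 list loci and 13824 genes, and it changed no call of a member.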
